A study of Mus musculus with 24 samples.

Results

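A set of 7 ligands of the EGF family (Areg, Ereg, Epgn, Hbegf, Tgfa, Btc and Egf) and 3 receptors of the ErbB family (Egfr, Erbb2 and Erbb3) were followed in intestinal crypts that had lost Nle1, Apc or both. The 10 genes were found by symbol, 1 row each, among 37620 genes in the deposited table of estimated counts. A total of 9 of them were among the 16552 genes that passed the filter on low counts, and Epgn was not. Whole crypts had been isolated from the jejunum of 24 mice, and their polyadenylated RNA was sequenced, 1 library per mouse. Each of 8 groups had 3 mice. The groups were the double knockout (ApccKO;NlecKO), ApccKO, NlecKO and Control, each taken on day 2 (48 h) or day 1 (24 h) after induction. All mice, Controls included, were 5 to 10 weeks old and had received intraperitoneal tamoxifen at 56 mg/kg on 3 days. NlecKO is a conditional knockout of Nle1 (Notchless), whose protein takes part in assembly of the large ribosomal subunit, and ApccKO a conditional knockout of Apc, whose protein restrains Wnt signalling. The labels name neither the Cre driver nor the strain, and do not say which alleles or driver the Controls carried.

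Ligands of the EGF family are made as membrane-bound precursors and are released by metalloproteases such as ADAM17. They bind EGFR, which pairs with itself or with another ErbB receptor and signals through Ras and the kinase ERK. ERBB2 binds no ligand of its own and acts as a partner, and ERBB3 binds neuregulins, has little kinase activity and signals mainly through PI3 kinase. In the intestine EGF receptor ligands are niche factors that sustain division of crypt cells, and amphiregulin and epiregulin rise during repair of the epithelium.

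Library totals were 17.86 to 26.47 M estimated counts. The targeted transcript of Nle1 was at 9.80 ± 1.08 CPM in double knockout crypts and 34.9 ± 1.14 CPM in ApccKO crypts on day 2, and at 6.69 ± 1.02 CPM in NlecKO and 22.7 ± 4.50 CPM in Control crypts (mean ± SD, n = 3 mice each, as for every mean below; CPM are counts scaled to a common library size by the TMM method). Mean Apc levels were 130 to 147 CPM in the 8 groups, and a deletion of only part of Apc would not be seen in gene-level counts. Among the day 1 libraries, double knockout replicate 3 and both ApccKO replicate 2 and ApccKO replicate 3 stood apart: their levels of Gm9625 and Gm8730 were below 1 CPM, where no other library had less than 29.4 CPM. Lactase, Lct, was at 295 to 455 CPM in these 3 libraries and at 10.2 to 126 CPM in the other libraries of ApccKO and double knockout mice. For comparisons that use them, which calls held without them is also given. The submitters' code numbers put all ApccKO and double knockout mice in 1 run between 2 runs of mice with intact Apc, so Apc loss and a place in that run cannot be told apart. The run before it held all Control and NlecKO mice of day 1, and the run after it all those of day 2. For these genotypes day and run cannot be told apart either. Within the run of ApccKO and double knockout mice, all of day 1 came before those of day 2. All 8 epithelial markers were detected in every group, at a summed 6370 to 12300 CPM per library, against 8.84 to 60.9 CPM for 10 stromal and endothelial markers.

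The summed transcripts of the ligands were higher in every group that had lost Nle1, Apc or both than in the Controls of the same day, most of all in the double knockout. Levels of different genes are compared in TPM, which correct for transcript length. On day 2 the 7 ligands summed to 278 ± 56.8 TPM in double knockout, 95.9 ± 12.8 TPM in ApccKO, 92.9 ± 49.8 TPM in NlecKO and 22.3 ± 1.61 TPM in Control crypts. On day 1 the sums were 137 ± 35.3 TPM in double knockout, 60.5 ± 2.70 TPM in ApccKO, 39.9 ± 3.03 TPM in NlecKO and 26.2 ± 2.91 TPM in Control crypts. Without the 3 libraries that stand apart, the 2 double knockout libraries of day 1 averaged 118 TPM and the 1 ApccKO library had 62.8 TPM. Tgfa was the most abundant ligand transcript in all 6 Control libraries, and Areg was in all 18 libraries of the other genotypes. Areg held 68.2% to 72.6% of the ligand TPM in double knockout libraries of day 2, 49.1% to 57.1% in ApccKO, 43.1% to 63.6% in NlecKO and 14.7% to 20.1% in Control libraries. Betacellulin (Btc) ranked second in every library of double knockout and ApccKO mice, and Egf and Epgn made up at most 3.29% and 0.678% of the ligand TPM in any library. The summed receptor transcripts of day 2 were lower in every knockout group than in Controls. They were at 85.5 ± 4.82 TPM in double knockout, 106 ± 4.58 TPM in ApccKO, 87.5 ± 8.95 TPM in NlecKO and 150 ± 13.8 TPM in Control crypts. On day 1 the receptor sums were 72.0 ± 6.89 TPM in double knockout, 75.2 ± 5.38 TPM in ApccKO, 117 ± 8.55 TPM in NlecKO and 110 ± 6.42 TPM in Control crypts. Without the 3 libraries that stand apart they were 73.2 TPM in double knockout and 80.8 TPM in ApccKO. These sums are a description and were not tested.

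**Figure D1:**
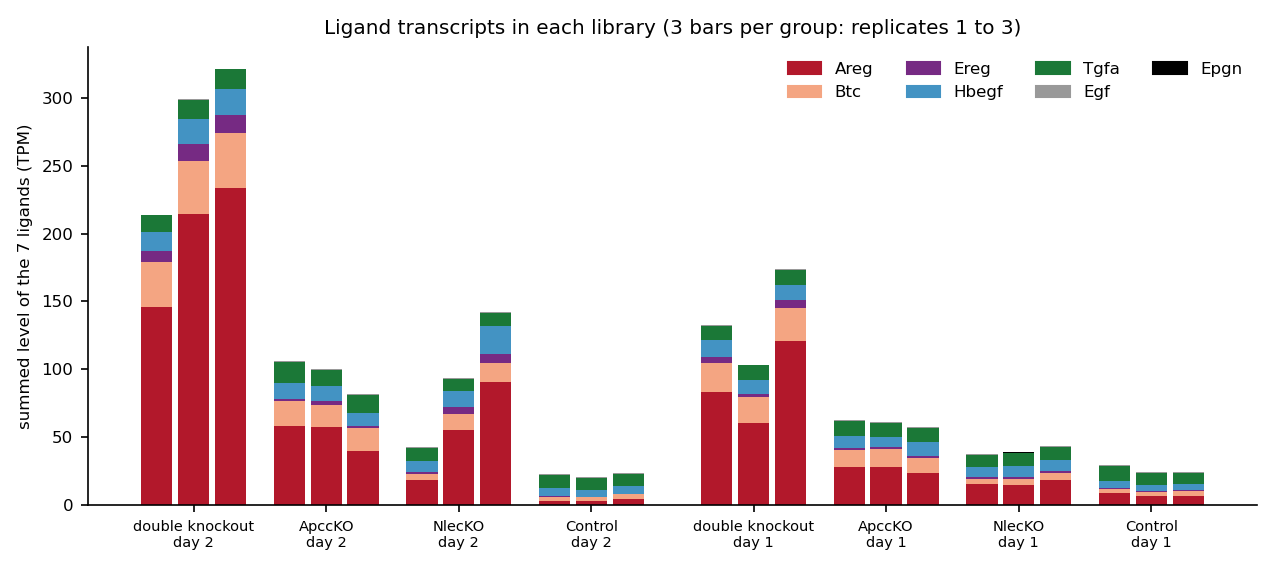
Summed level of the 7 ligand transcripts in each library, in TPM on the vertical axis, with 3 bars per group for replicates 1 to 3 and colours for the genes. Areg is the tallest segment in every library that had lost Nle1 or Apc, and the double knockout libraries of day 2 stand highest, at 214 to 321 TPM.

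Across the 8 groups, all 9 ligand and receptor genes tested differed (edgeR's quasi-likelihood F test with Benjamini-Hochberg adjusted p of at most 0.007), beside 77.9% of all genes tested, so the test over the groups sets them little apart. The same tool and adjustment, over 16552 genes and at a threshold of 0.05, is behind every call and adjusted p below unless another is named. In NlecKO against Control crypts on day 2, 4 ligands rose, 2 receptors fell and 3 genes were not called, so that 6 of 9 were called beside 15.6% of all genes (7.33% higher and 8.26% lower). On day 1 none of the 9 was called beside 2.48% of all genes, 4 had an unadjusted p under 0.05 and DESeq2 called 3. Of the 9 genes, 8 were called in ApccKO against Control crypts on day 2 beside 58.7% of all genes (29.2% higher and 29.4% lower), 5 higher and 3 lower. On day 1, 5 of 9 were called in that comparison, 3 higher and 2 lower, beside 49.7% (24.7% higher and 25.0% lower), a share near the background. The double knockout against ApccKO comparison had 6 of 9 called on day 2 beside 34.9% of all genes (19.5% higher and 15.4% lower), 5 higher and 1 lower. On day 1, 4 of 9 were called in that comparison, all higher, beside 10.6% of all genes in either direction and 5.87% higher. Between double knockout and NlecKO crypts 8 of 9 were called on day 2, 5 higher and 3 lower, beside 47.8% of all genes (25.6% higher and 22.2% lower). On day 1 it was 6 of 9, 4 higher and 2 lower, beside 52.6% (28.2% higher and 24.4% lower). The 4 comparisons of a day share groups with each other and are no independent repeats. The genes were chosen with earlier results of these data known, so the counts beside all genes are a description and no test of the set.

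**Figure D2:**
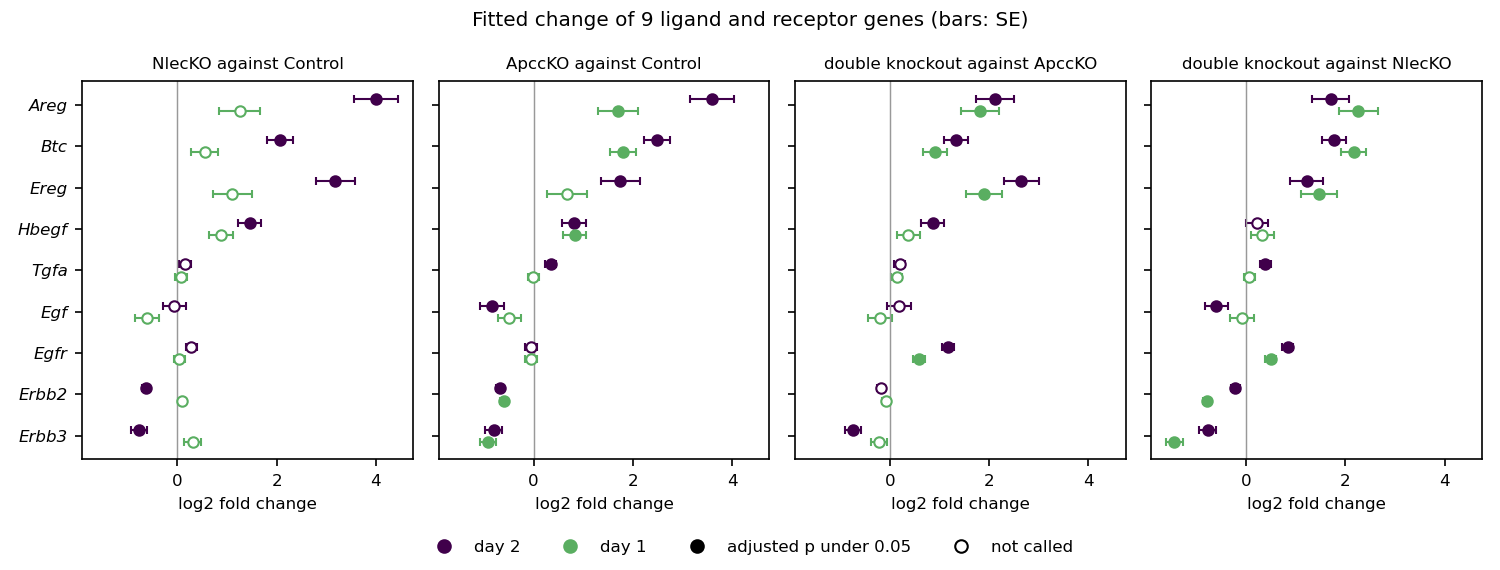
Fitted log2 fold changes of 9 ligand and receptor genes (horizontal axis, bars are SE) in 4 comparisons, day 2 in purple and day 1 in green, filled where the adjusted p was under 0.05. Areg, Btc and Ereg lie to the right of 0 in every panel, and Erbb3 lies to the left in every comparison of day 2.

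Epgn, Ereg, Areg and Btc are 4 consecutive protein-coding genes of mouse chromosome 5 in RefSeq's annotation of GRCm38.p6, and Ereg, Areg and Btc had the widest range over the groups among the ligands tested while Epgn stayed near 0. The bases upstream of 2 of these 3 are shown because they rose together and stand next to each other; RefSeq's promoter table held no entry for Ereg. Each run is the 250 bases before the annotated start in GRCm38.p6, 5′ to 3′ on the strand of the gene, with capitals for matches to the motifs searched.
Areg, chr5:91139349-91139598, plus strand: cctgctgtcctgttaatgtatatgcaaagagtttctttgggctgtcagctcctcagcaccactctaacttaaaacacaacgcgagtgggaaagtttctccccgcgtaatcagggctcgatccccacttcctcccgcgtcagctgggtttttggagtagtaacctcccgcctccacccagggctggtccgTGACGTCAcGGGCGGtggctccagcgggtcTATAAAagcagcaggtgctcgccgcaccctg
Btc, chr5:91402995-91403244, minus strand: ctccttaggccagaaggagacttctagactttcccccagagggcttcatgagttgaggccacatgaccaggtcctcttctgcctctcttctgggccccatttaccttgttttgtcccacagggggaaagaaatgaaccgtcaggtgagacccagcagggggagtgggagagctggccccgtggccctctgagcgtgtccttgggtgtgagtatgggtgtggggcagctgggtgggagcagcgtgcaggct
The motifs searched on both strands were the cyclic AMP response element TGACGTCA, the AP-1 site TGANTCA, the TCF site CTTTGAT, the TEAD site GGAATG, the SP1 site GGGCGG, the TATA box TATAAA and the p53 half-site. The Areg run holds a cyclic AMP response element that begins 61 bases before the start, an SP1 site at 52 and a TATA box at 31, and these matches do not overlap. Of 32851 promoter windows of this length, 1.55% hold the cyclic AMP response element, 32.7% the SP1 site and 12.4% the TATA box. The Btc run holds none of the motifs searched, although the AP-1 site is in 6.75% of windows, the TCF site in 3.21%, the TEAD site in 12.6% and the p53 half-site in 7.13%. A match is a string of letters and not a shown binding site.

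Areg encodes amphiregulin, a ligand of EGFR alone. On day 2 Areg had 121, 172 and 192 CPM in double knockout replicates 1 to 3, 41.2, 41.5 and 28.7 CPM in ApccKO, 17.1, 49.6 and 81.0 CPM in NlecKO and 2.85, 2.56 and 3.91 CPM in Control libraries. The day 1 values were 66.7, 47.6 and 96.6 CPM in double knockout, 21.0, 21.3 and 17.3 CPM in ApccKO, 15.3, 12.4 and 16.2 CPM in NlecKO and 7.27, 5.63 and 5.46 CPM in Control libraries. No library of a knockout overlapped the Control libraries of its day, the double knockout libraries lay above all others of their day, and among the NlecKO libraries of day 2 replicate 1 was lowest and replicate 3 highest. Areg rose 16.0-fold in NlecKO against Control crypts on day 2 (log2 4.0 ± 0.45 SE, adjusted p = 2.31e-05), and without NlecKO replicate 3 the log2 change was 3.45. It rose in ApccKO against Control crypts by log2 3.59 ± 0.44 on day 2 (adjusted p = 2.73e-06), with a day 1 rise of 1.70 ± 0.41 (adjusted p = 0.00259). Set against ApccKO crypts, the double knockout was higher by 2.12 ± 0.38 on day 2 (adjusted p = 0.000321), and the day 1 rise was 1.82 ± 0.38 (adjusted p = 0.00575). Set against NlecKO crypts, it was higher by 1.71 ± 0.37 on day 2 (adjusted p = 0.00115) and the day 1 rise was 2.26 ± 0.39 (adjusted p = 0.000147). NlecKO against Control crypts of day 1 gave 1.26 ± 0.42 (adjusted p = 0.118 in edgeR and 0.0131 in DESeq2), with no overlap between the libraries. On the TPM scale the group means fell in the order double knockout of day 2, double knockout of day 1, NlecKO of day 2, ApccKO of day 2, ApccKO of day 1, NlecKO of day 1, Control of day 1 and Control of day 2. Only the neighbours around NlecKO of day 2 overlapped in that order.

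Ereg encodes epiregulin, which binds EGFR and ERBB4 and lies beside Areg. On day 2 Ereg had 28.4, 41.0 and 44.3 CPM in double knockout, 4.77, 7.94 and 5.35 CPM in ApccKO, 6.5, 18.4 and 23.5 CPM in NlecKO and 1.86, 1.74 and 1.77 CPM in Control libraries. For day 1 they were 14.4, 7.75 and 18.5 CPM in double knockout, 3.63, 3.42 and 3.86 CPM in ApccKO, 4.0, 6.01 and 4.65 CPM in NlecKO and 2.73, 2.30 and 1.82 CPM in Control libraries. The double knockout libraries again lay above every other library of their day, and 2 of 3 NlecKO libraries of day 2 lay above all ApccKO libraries. Ereg rose by log2 3.18 ± 0.39 in NlecKO against Control crypts on day 2 (adjusted p = 3.96e-05). It rose by 2.65 ± 0.36 in double knockout against ApccKO crypts (adjusted p = 1.84e-05) and by 1.75 ± 0.39 in ApccKO against Control crypts (adjusted p = 0.000891). On day 1 it rose in double knockout against ApccKO crypts (1.89 ± 0.37, adjusted p = 0.00302). Against NlecKO crypts the double knockout had more Ereg on day 2 (1.22 ± 0.34, adjusted p = 0.00627) and day 1 (1.46 ± 0.36, adjusted p = 0.0023). It was not called on day 1 in ApccKO against Control crypts (0.67 ± 0.40, adjusted p = 0.168) or NlecKO against Control crypts (1.10 ± 0.39, adjusted p = 0.143 in edgeR and 0.044 in DESeq2). An antisense transcript, Gm19610, overlaps 3.42% of the exon bases of Ereg on the other strand.

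Btc encodes betacellulin, a further ligand of EGFR and ERBB4. Btc had 72.6, 83.3 and 88.3 CPM in double knockout, 33.1, 31.7 and 31.9 CPM in ApccKO, 11.0, 26.3 and 34.1 CPM in NlecKO and 5.59, 4.79 and 6.91 CPM in Control libraries on day 2. On day 1 Btc was at 45.7, 39.2 and 51.3 CPM in double knockout, 24.5, 26.7 and 21.4 CPM in ApccKO, 9.51, 9.12 and 11.7 CPM in NlecKO and 6.67, 6.95 and 7.13 CPM in Control libraries. The order of the genotypes was the same on both days, and within a day the ApccKO and NlecKO libraries of day 2 were the only ones to overlap. Btc rose in ApccKO against Control crypts by log2 2.49 ± 0.27 on day 2 (adjusted p = 3.14e-07), and its day 1 rise was 1.81 ± 0.26 (adjusted p = 2.55e-05). In NlecKO against Control crypts it rose by 2.06 ± 0.26 on day 2 (adjusted p = 5.09e-05), with 0.55 ± 0.26 on day 1 (adjusted p = 0.298). The double knockout had more Btc than ApccKO crypts, by 1.34 ± 0.24 on day 2 (adjusted p = 0.000299), and its day 1 rise was 0.91 ± 0.24 (adjusted p = 0.0221). That day 1 call against ApccKO crypts was lost without ApccKO replicate 1 or 3 or double knockout replicate 1 or 3, with adjusted p up to 0.110. Against NlecKO crypts the double knockout was higher by 1.77 ± 0.25 on day 2 (adjusted p = 1.6e-05) and its day 1 rise was 2.17 ± 0.26 (adjusted p = 3.18e-06).

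Hbegf encodes heparin-binding EGF-like growth factor, another ligand of EGFR and ERBB4. Hbegf had 25.2, 32.6 and 36.2 CPM in double knockout, 18.5, 18.7 and 14.5 CPM in ApccKO, 16.3, 23.3 and 41.0 CPM in NlecKO and 11.6, 8.09 and 9.91 CPM in Control libraries on day 2. The highest library was NlecKO replicate 3, above all double knockout libraries. Hbegf rose by log2 1.46 ± 0.24 in NlecKO against Control crypts on day 2 (adjusted p = 0.000412). It rose by 0.81 ± 0.24 in ApccKO against Control crypts (adjusted p = 0.00592) and by 0.86 ± 0.23 in double knockout against ApccKO crypts (adjusted p = 0.00649). Without NlecKO replicate 3 the change against Control was 1.02, and the call held. Double knockout against NlecKO crypts of day 2 gave 0.21 ± 0.23 (adjusted p = 0.456), and 0.65 without NlecKO replicate 3 (adjusted p = 0.00701). On day 1 Hbegf had 17.8 to 21.5 CPM in double knockout, 13.2 to 16.9 CPM in ApccKO, 14.6 to 16.6 CPM in NlecKO and 7.92 to 9.84 CPM in Control libraries, so that all 9 knockout libraries lay above the Controls. It rose in ApccKO against Control crypts on day 1 (0.83 ± 0.24, adjusted p = 0.00733; 0.0591 without the 3 libraries that stand apart) and just missed the threshold in NlecKO against Control crypts (0.88 ± 0.24, adjusted p = 0.0551).

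The remaining ligands are Tgfa, Egf and Epgn. Transforming growth factor alpha, Tgfa, had 36.5 to 42.6 CPM in double knockout, 30.7 to 39.0 CPM in ApccKO, 29.3 to 32.2 CPM in NlecKO and 25.1 to 30.2 CPM in Control libraries on day 2. It rose by log2 0.34 ± 0.11 in ApccKO against Control crypts (adjusted p = 0.0141) and by 0.39 ± 0.11 in double knockout against NlecKO crypts (adjusted p = 0.00784), and the first call was lost without ApccKO replicate 1 or Control replicate 2 (adjusted p up to 0.0808). For NlecKO against Control crypts its change was 0.15 ± 0.11 on day 2 and 0.07 ± 0.11 on day 1, with 95% intervals of -0.07 to 0.37 and -0.15 to 0.29. Egf, the founding ligand of the family, had 18 to 50 counts per library and fell by 0.84 ± 0.24 in ApccKO against Control crypts on day 2 (adjusted p = 0.00467). It also fell by 0.60 ± 0.24 in double knockout against NlecKO crypts (adjusted p = 0.0415), a call lost without double knockout replicate 1 or 3 or NlecKO replicate 1 or 3 (adjusted p up to 0.169). Egf shares 9.58% of its 31-base words with other genes and overlaps antisense transcripts, and reads of such overlaps cannot be told apart without strand, so its level is uncertain. Epgn, which encodes epigen, had 0 to 7 counts per library and was not tested.

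**Figure D3:**
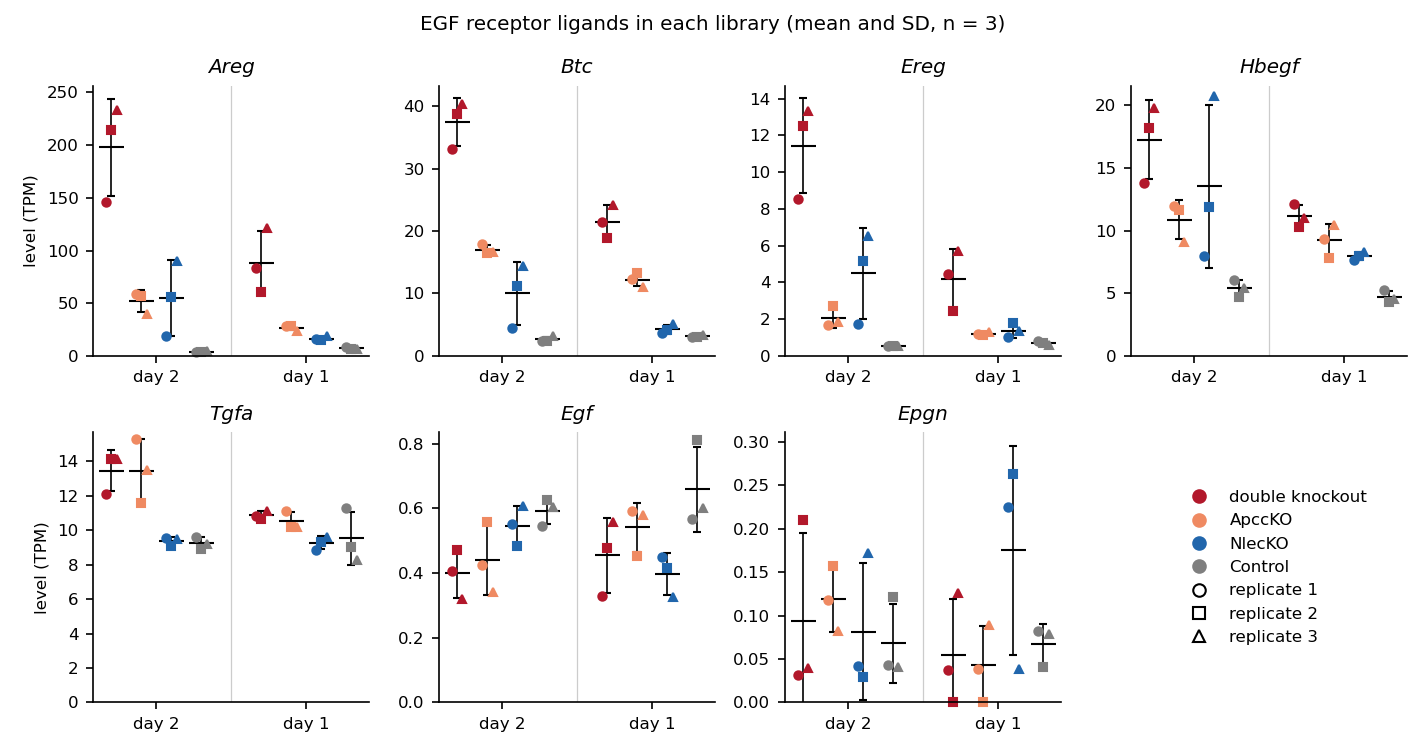
Level of each ligand transcript in each library (vertical axes in TPM, from 0), with day 2 and day 1 side by side, 4 genotypes by colour and replicates by symbol; bars are the mean and SD of 3 mice, cut at 0. Double knockout libraries of day 2 are highest for Areg, Btc and Ereg, at up to 233, 40.4 and 13.3 TPM, while the Epgn axis ends under 1 TPM.

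Several marker lists moved with these ligand changes, some with Apc loss and some with Nle1 loss. The 8 enterocyte markers summed to 1370 to 11600 CPM in double knockout and ApccKO libraries of both days, against 6270 to 36300 CPM in NlecKO and Control libraries. The 8 goblet markers summed to 5300 to 6740 CPM in double knockout and 2330 to 3120 CPM in ApccKO libraries of day 2, and to 9170 to 13700 CPM in all NlecKO and Control libraries. The 8 stem cell markers summed to 1490 to 1810 CPM in double knockout and 3510 to 3970 CPM in ApccKO libraries of day 2, and to 971 to 1420 CPM in NlecKO and 1590 to 2110 CPM in Control libraries. Goblet markers were thus higher and stem cell markers lower in the double knockout than in ApccKO crypts of day 2, with no overlap. The 8 enteroendocrine markers summed to 397 to 500 CPM in double knockout and 221 to 323 CPM in ApccKO libraries of day 2, and to 983 to 1100 CPM in NlecKO and 592 to 674 CPM in Control libraries. On day 1 they summed to 1030 to 1140 CPM in NlecKO and 613 to 870 CPM in Control libraries, so that they were higher with Nle1 loss without overlap in each of these comparisons. The 10 immune markers summed to 71.4 to 85.7 CPM in double knockout and 36.4 to 40.0 CPM in ApccKO libraries of day 2, and to 140 to 320 CPM in all NlecKO and Control libraries. The 10 stromal and endothelial markers summed to 22.3 to 36.4 CPM in double knockout and 8.84 to 15.7 CPM in ApccKO libraries of day 2, with 36.2 to 60.9 CPM in NlecKO and 20.9 to 39.8 CPM in Control libraries. On day 1 their sums were 42.6 to 58.4 CPM in NlecKO and 22.4 to 26.7 CPM in Control libraries, without overlap. NlecKO and Control libraries of day 2 overlapped in these sums. The 8 tuft cell markers summed to 34.5 to 44.8 CPM in double knockout and 23.4 to 30.6 CPM in ApccKO libraries of day 2, and to 94.3 to 188 CPM in all NlecKO and Control libraries. Tuft sums of day 1 were 132 to 156 CPM in NlecKO and 94.3 to 117 CPM in Control libraries, without overlap, while those of day 2 overlapped. The 8 Paneth cell markers overlapped, at 8350 to 16200 CPM with Apc lost and 6770 to 14000 CPM with Apc intact. No gene of these lists was at 0 throughout a group, apart from 1 stromal or endothelial gene in ApccKO crypts of day 1. The part of these markers in the ligand changes was not tested. In whole crypts, more cells of a type and more RNA per cell cannot be told apart.

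Of the receptors, Egfr was higher in the double knockout than in either single knockout on both days, while Erbb2 and Erbb3 fell in ApccKO against Control crypts on both days and in NlecKO against Control crypts on day 2. By transcript level in TPM, Erbb3 led in Control libraries, at 69.9 to 101 TPM on day 2, above Erbb2 at 52.8 to 57.7 TPM and Egfr at 10.2 to 12.7 TPM. In double knockout libraries of day 2 the 3 stood at 27.7 to 29.2 TPM for Erbb3, 29.2 to 31.9 TPM for Erbb2 and 20.0 to 29.4 TPM for Egfr. Egfr thus made up 24.8% to 33.4% of the receptor TPM in double knockout and 6.89% to 9.04% in Control libraries of day 2. The upstream runs of Egfr, which rose in the double knockout, and of Erbb2, which fell with Apc loss, are shown for comparison with those of the ligands, in the same build and form; RefSeq's table held no entry for Erbb3.
Egfr, chr11:16751953-16752202, plus strand: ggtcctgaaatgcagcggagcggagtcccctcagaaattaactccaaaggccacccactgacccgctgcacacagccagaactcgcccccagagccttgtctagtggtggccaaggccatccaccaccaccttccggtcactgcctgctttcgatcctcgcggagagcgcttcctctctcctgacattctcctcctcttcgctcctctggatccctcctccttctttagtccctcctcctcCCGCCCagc
Erbb2, chr11:98412234-98412483, plus strand: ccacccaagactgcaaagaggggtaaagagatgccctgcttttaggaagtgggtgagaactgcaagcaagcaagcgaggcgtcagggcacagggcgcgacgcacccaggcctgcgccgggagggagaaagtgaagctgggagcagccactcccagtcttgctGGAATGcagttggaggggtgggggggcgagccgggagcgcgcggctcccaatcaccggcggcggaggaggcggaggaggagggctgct
The Egfr run holds 1 SP1 site, 9 bases before the start on the opposite strand, and the Erbb2 run 1 TEAD site at 88 bases. Neither holds the cyclic AMP response element or the TATA box found upstream of Areg. A TATA box was also found upstream of Epgn, 86 bases before the start, in a run not shown. Of the other runs not shown, that of Tgfa holds 2 SP1 sites and 1 of Egf holds a p53 half-site.

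**Figure D4:**
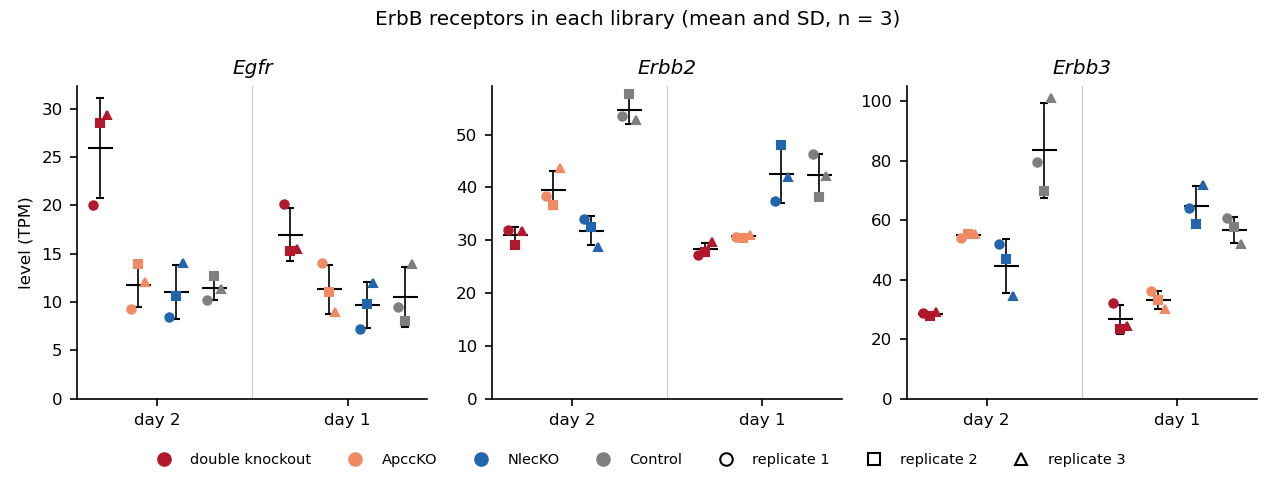
Level of the 3 receptor transcripts in each library (vertical axes in TPM, from 0), day 2 and day 1 side by side, genotypes by colour, with mean and SD of 3 mice. Egfr is highest in double knockout libraries, and the group means of Erbb2 and Erbb3 are highest in Control crypts of day 2.

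Egfr had 73.1, 84.9 and 90.4 CPM in double knockout, 34.7, 37.3 and 38.3 CPM in ApccKO, 36.8, 46.3 and 56.0 CPM in NlecKO and 38.2, 38.6 and 37.7 CPM in Control libraries on day 2. On day 1 Egfr stood at 53.1, 53.1 and 53 CPM in double knockout, 36.7, 35.7 and 33.9 CPM in ApccKO, 31.2, 40.9 and 40.9 CPM in NlecKO and 34.5, 36.6 and 38.8 CPM in Control libraries. All 6 double knockout libraries lay above every library of ApccKO and Control mice, and 5 of the 6 NlecKO libraries lay below the lowest double knockout library. Egfr rose in double knockout against ApccKO crypts by log2 1.17 ± 0.12 on day 2 (adjusted p = 6.23e-07), and its day 1 rise was 0.58 ± 0.12 (adjusted p = 0.00389). Against NlecKO crypts the double knockout was higher by 0.83 ± 0.12 on day 2 (adjusted p = 1.41e-05), and the day 1 excess was 0.49 ± 0.12 (adjusted p = 0.00171). ApccKO differed from Control by -0.05 ± 0.12 on each day, with 95% intervals of -0.28 to 0.18, and NlecKO differed from Control by 0.28 ± 0.12 on day 2 (adjusted p = 0.113; 0.0107 without NlecKO replicate 1).

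Erbb2 had 119, 110 and 121 CPM in double knockout, 125, 129 and 142 CPM in ApccKO, 150, 137 and 121 CPM in NlecKO and 217, 211 and 207 CPM in Control libraries on day 2. The day 1 levels were 101 to 104 CPM in double knockout, 105 to 111 CPM in ApccKO, 173 to 182 CPM in NlecKO and 154 to 186 CPM in Control libraries. On day 2 the Controls stood above all 9 knockout libraries, while on day 1 NlecKO and Control libraries overlapped. Erbb2 fell in NlecKO against Control crypts on day 2 (log2 -0.64 ± 0.08, adjusted p = 3.91e-05). Erbb2 also fell in ApccKO against Control crypts on both days, by 0.68 ± 0.08 on day 2 (adjusted p = 8.49e-07), with a day 1 change of -0.61 ± 0.08 (adjusted p = 9.22e-06). Double knockout against ApccKO crypts gave -0.18 ± 0.08 on day 2 (adjusted p = 0.0989), and the day 1 value was -0.08 ± 0.08 (adjusted p = 0.586). Against NlecKO crypts the double knockout differed by -0.22 ± 0.08 on day 2 (adjusted p = 0.0341), a call lost without double knockout replicate 1 or 2 or NlecKO replicate 1 or 2 (adjusted p up to 0.201). On day 1 Erbb2 fell by 0.79 ± 0.08 in that comparison (adjusted p = 5.31e-07), with no overlap between the libraries, and the call held without each library in turn.

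Erbb3 had 142, 135 and 144 CPM in double knockout, 226, 241 and 238 CPM in ApccKO, 287, 248 and 185 CPM in NlecKO and 410, 323 and 503 CPM in Control libraries on day 2. Each knockout group lay below the Controls, and the double knockout libraries lay below all others. Erbb3 fell by 0.78 ± 0.17 on the log2 scale in NlecKO against Control crypts on day 2 (adjusted p = 0.00347). It fell by 0.81 ± 0.17 in ApccKO against Control crypts (adjusted p = 0.000336) and by 0.75 ± 0.17 in double knockout against ApccKO crypts (adjusted p = 0.00161). On day 1 it fell by 0.92 ± 0.17 in ApccKO against Control crypts (adjusted p = 0.000175). In double knockout against NlecKO crypts Erbb3 fell by 0.78 ± 0.17 on day 2 (adjusted p = 0.000791), and its day 1 change was -1.45 ± 0.17 (adjusted p = 1.92e-06). The day 1 comparisons of Nle1 loss gave 0.31 ± 0.16 with Apc intact (adjusted p = 0.353) and -0.22 ± 0.17 with Apc lost (adjusted p = 0.455).

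Leaving out the 3 libraries of day 1 that stand apart kept 1 ApccKO and 2 double knockout libraries, and the single ApccKO library is then assumed to vary like the other groups. None of the 9 genes was called in double knockout against ApccKO crypts of day 1 in that fit, where Areg had log2 1.44 (adjusted p = 0.402), Ereg 1.60 (adjusted p = 0.338), Btc 0.79 (adjusted p = 0.476) and Egfr 0.53 (adjusted p = 0.335). In ApccKO against Control crypts of day 1 Areg, Btc, Erbb2 and Erbb3 were still called, and in double knockout against NlecKO crypts of day 1 Areg, Ereg, Btc, Egfr, Erbb2 and Erbb3 were.

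Whether Nle1 loss acted differently with and without Apc was tested as an interaction, the log2 change in double knockout against ApccKO crypts minus that in NlecKO against Control crypts. On day 2, Egfr (0.89 ± 0.17, adjusted p = 0.00439) and Erbb2 (0.47 ± 0.11, adjusted p = 0.0221) were called, 2 of 9 genes, both higher, beside 5.24% of all genes (3.29% higher). Egfr rose with Nle1 loss where Apc was lost and was not called where it was intact. Erbb2 fell with Nle1 loss where Apc was intact and was not called where it was lost. The Erbb2 call was lost without ApccKO replicate 1, double knockout replicate 3, NlecKO replicate 3 or Control replicate 1 (adjusted p up to 0.0712). Areg had an interaction of -1.88 ± 0.56 (adjusted p = 0.0614). It passed in DESeq2 (adjusted p = 0.00589) and without NlecKO replicate 1 (-2.29, adjusted p = 0.00409), as Btc did without that library (-1.06, adjusted p = 0.00699). Ereg gave -0.53 ± 0.51 (adjusted p = 0.617), with a 95% interval of -1.54 to 0.48. On day 1 no ligand or receptor was called by edgeR or DESeq2, beside 0.0121% of all genes, and 2 had an unadjusted p under 0.05.

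Days were compared within each genotype. For Control and NlecKO mice, day cannot be told apart from the run of code numbers. Double knockout crypts had more Ereg (1.49 ± 0.34, adjusted p = 0.0148), Btc (0.84 ± 0.24, adjusted p = 0.0403) and Egfr (0.64 ± 0.12, adjusted p = 0.00313) on day 2 than on day 1, 3 of 9 genes beside 6.49% of all genes (3.46% higher). The Ereg call was lost without double knockout replicate 2 of day 1 or replicate 3 of day 2 (adjusted p up to 0.0979). The Btc call was lost in 5 of 6 fits that left out 1 library (adjusted p up to 0.186). Without the 3 libraries of day 1 that stand apart, the Ereg and Egfr calls held (1.77 and 0.64) and that of Btc did not (adjusted p = 0.0728). ApccKO crypts had more Erbb2 (0.29 ± 0.08, adjusted p = 0.0273) and Erbb3 (0.67 ± 0.17, adjusted p = 0.0127) on day 2, 2 of 9 beside 11.3% (5.84% higher). Both calls were lost without the 3 libraries of day 1 that stand apart (adjusted p = 0.441 and 0.436). In NlecKO crypts none was called by edgeR, beside 0.0362% of all genes, although 7 of 9 had an unadjusted p under 0.05 and DESeq2 called 4. Without NlecKO replicate 1 of day 2, edgeR called 5: Areg (2.16), Ereg (2.10), Hbegf (1.03) and Btc (1.58) higher and Erbb2 (-0.46) lower on day 2. In Control crypts none was called by edgeR, beside 0.163% of all genes, 3 had an unadjusted p under 0.05 and DESeq2 called 1. These 3 were Areg, lower on day 2 (-0.99 ± 0.46), and Erbb2 (0.36 ± 0.08) and Erbb3 (0.55 ± 0.17), higher, each without overlap between the days. The change in the effect of Nle1 loss between days with intact Apc was called for Erbb2 (-0.74 ± 0.11, adjusted p = 0.0407), 1 of 9 and the 1 gene called of all 16552 (0.00604%). It was lost in 9 of 12 fits that left out 1 library, with adjusted p up to 0.154, namely without each of the NlecKO libraries of day 1, Control replicates 2 and 3 of each day, and NlecKO replicates 2 and 3 of day 2. With Apc lost none was called by edgeR, beside 0.435% of all genes, 2 had an unadjusted p under 0.05 and DESeq2 called 1.

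The rest of the pathway was read from 5 lists of 45 genes in all, of which 41 were tested. The lists were chosen with earlier results of these data known, so their counts beside all genes are a description and no test of a list. The 11 genes that ERK signalling is known to induce come first. In NlecKO against Control crypts on day 2, 7 of 11 rose and none fell, beside 7.33% of all genes called higher, with a median log2 change of 1.07, beside 0.00 for all genes tested. They were the ETS factor Etv4 (2.74 ± 0.31, adjusted p = 2.42e-05), Phlda1 (1.60 ± 0.22, adjusted p = 8.4e-05), Fosl1, the ERK phosphatases Dusp6 (1.56 ± 0.28) and Dusp4 (1.07 ± 0.26), and the immediate early genes Egr1 (1.07 ± 0.31) and Fos (0.89 ± 0.28). Without NlecKO replicate 3 the count was 4, and with only these 6 libraries in the fit it was 2. In ApccKO against Control crypts 9 of 11 rose and Dusp5 fell on both days (-1.34 ± 0.19 on day 2), beside 29.2% of all genes called higher on day 2 and 24.7% on day 1. The medians were 1.91 on day 2, beside 0.02 for all genes, and 1.43 on day 1, beside -0.01. Without the 3 libraries that stand apart, 8 of 11 rose on day 1, as Fos missed the threshold, and the median was 1.68. Phlda1 (3.15 ± 0.23, adjusted p = 2.74e-09), Etv4 (3.44 ± 0.32, adjusted p = 8.24e-08) and the early response gene Ier3 (2.63 ± 0.23, adjusted p = 1.82e-08) led on day 2. In double knockout against ApccKO crypts on day 2, 5 of 11 rose (Fosl1, Dusp5, Dusp6, Ier3 and Fos), beside 19.5% of all genes called higher. Etv5 fell, and the median was 0.42, beside 0.06 for all genes. On day 1 Fosl1 and Ier3 rose in that comparison, 2 of 11 beside 5.87% of all genes, and none of the 11 was called there without the 3 libraries that stand apart or without ApccKO replicate 3. In NlecKO against Control crypts of day 1 Fosl1 alone rose (adjusted p = 0.0424), 1 of 11 beside 0.870% of all genes called higher, a call lost in 5 of 6 fits that left out 1 library (adjusted p up to 0.191).

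Fosl1, which encodes the AP-1 subunit Fra-1, was nearly absent from Control crypts, with 0 to 2 counts per library and 3 counts in all on each day. On day 2 Fosl1 had 596, 608 and 707 counts in double knockout, 86, 84 and 92 counts in ApccKO and 20, 66 and 216 counts in NlecKO libraries. The summed level was 97.4 times that of Control in NlecKO crypts of day 2 (exact 95% interval 33.0 to 475, counting error only) and 82.2 times in ApccKO crypts (27.8 to 401). NlecKO replicate 3 held 71.5% of the NlecKO counts, and without it the ratio was 44.7. Without Control replicate 1 the ratios were 212 in NlecKO and 179 in ApccKO crypts. Against ApccKO crypts the double knockout was higher on day 2 by log2 2.99 ± 0.50 (adjusted p = 0.000163). NlecKO replicates 1 to 3 of day 2 followed the same order for Fosl1, Areg, Btc, Ereg, Hbegf and Egfr, with replicate 1 lowest and replicate 3 highest, and the opposite order for Erbb2 and Erbb3.

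**Figure D5:**
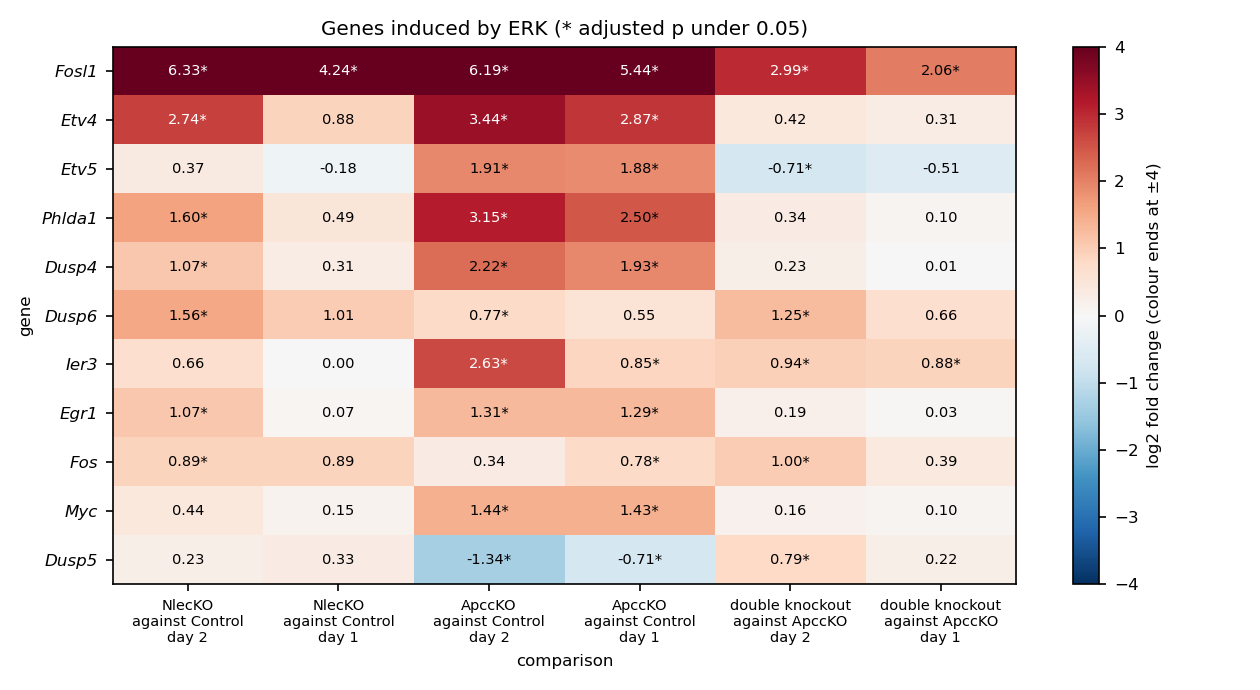
Fitted log2 fold changes of 11 genes induced by ERK (rows) in 3 comparisons on day 2 and day 1 (columns), as numbers and colours, with a star where the adjusted p was under 0.05. Columns against Control are red for most genes, and Dusp5 is blue in the ApccKO columns; the Fosl1 values against Control rest on 3 counts and depend on the prior count.

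Among 11 inhibitors of the receptors and of Ras, Spry4 rose in NlecKO against Control crypts on day 2 (1.58 ± 0.21, adjusted p = 5.71e-05), as did Errfi1 (1.16 ± 0.27), which encodes the EGFR inhibitor Mig-6. The ubiquitin ligase gene Cbl fell (-0.63 ± 0.20, adjusted p = 0.0371, lost in 5 of 6 fits without 1 library, adjusted p up to 0.190). Of all genes, 15.6% were called in that comparison, against 3 of the 11 inhibitors. In ApccKO against Control crypts 6 of the 11 rose and 2 fell on each day, beside 58.7% of all genes called on day 2 and 49.7% on day 1. Lrig1, a stem cell gene whose protein restrains ErbB receptors, rose by 1.51 ± 0.13 on day 2 (adjusted p = 1.9e-08). Lrig1 then fell in double knockout against ApccKO crypts on day 2 (-0.73 ± 0.13, adjusted p = 0.00023). Its relative Lrig3 moved the other way in both comparisons (-1.41 ± 0.14 and 0.79 ± 0.13). Of 4 genes of ligand shedding, Rhbdf2, which encodes a partner of ADAM17, rose in NlecKO against Control crypts on day 2 (0.49 ± 0.13, not called without NlecKO replicate 3 or Control replicate 3) and in double knockout against ApccKO crypts on day 2 (0.83 ± 0.13) and day 1 (0.73 ± 0.13). Its relative Rhbdf1 rose in ApccKO against Control crypts on day 2 (1.22 ± 0.17) and day 1 (1.08 ± 0.17). Rhbdf2 was the 1 of 4 shedding genes called in the comparisons just given for it, beside 15.6%, 34.9% and 10.6% of all genes. In ApccKO against Control crypts 2 of the 4 were called on each day, near the 58.7% and 49.7% of all genes called on day 2 and day 1. Adam17 rose by 0.22 ± 0.07 in ApccKO against Control crypts on day 1 (adjusted p = 0.0122, and 0.0516 without the 3 libraries that stand apart), and Adam10 by 0.53 ± 0.10 on day 2. Of 14 genes of the core from Ras to ERK, 2 were called in NlecKO against Control crypts on day 2, Hras higher (0.41 ± 0.11) and Shc1 lower (-0.26 ± 0.07, lost in 4 of 6 fits without 1 library, adjusted p up to 0.110), and without NlecKO replicate 3 none was called. That count is near the 15.6% of all genes called. In ApccKO against Control crypts 3 of the 14 rose and 6 fell on day 2, near the 58.7% of all genes called, with Nras higher (0.73 ± 0.08) and the ERK1 gene Mapk3 (-0.81 ± 0.16) and the MEK2 gene Map2k2 (-0.64 ± 0.11) lower. In double knockout against ApccKO crypts Araf, a Raf kinase gene, rose on day 2 (0.40 ± 0.08) and day 1 (0.42 ± 0.08). Of the 14 core genes, 5 were called there on day 2 and 1 on day 1, near the 34.9% and 10.6% of all genes. The Ras inhibitors Spred1 (-0.48 ± 0.11) and Spred2 (-0.29 ± 0.08) and Nras (-0.29 ± 0.08) fell on day 2. On day 1 Spred1 (-0.40 ± 0.11) and Lrig1 (-0.42 ± 0.13) fell there, 2 of the 41 pathway genes beside 4.77% of all genes called lower, and no call of that day in this comparison held without the 3 libraries that stand apart. In double knockout against NlecKO crypts of day 2 Ier3 (2.90 ± 0.23), Phlda1 (1.88 ± 0.21), the ubiquitin ligase gene Cblb (0.98 ± 0.14) and Lrig1 (0.91 ± 0.13) led those that rose. Lrig3 (-0.85 ± 0.13), Mapk3 (-0.82 ± 0.16), Dusp5 (-0.78 ± 0.18) and Map2k2 (-0.37 ± 0.11) led those that fell. Of the 41 pathway genes, 15 rose and 6 fell there, near the 47.8% of all genes called. On day 1 the same comparison had Etv4 (2.30 ± 0.29), Phlda1 (2.10 ± 0.22), Ier3 (1.72 ± 0.23) and Lrig1 (1.32 ± 0.13) higher. It had Mapk3 (-0.79 ± 0.16), Map2k2 (-0.64 ± 0.11), Lrig3 (-0.63 ± 0.13) and the MEK1 gene Map2k1 (-0.57 ± 0.11) lower. Leading on day 1 in ApccKO against Control crypts were Etv4 (2.87 ± 0.31), Phlda1 (2.50 ± 0.22), Lrig1 (1.54 ± 0.13) and Spred1 (0.89 ± 0.11), which rose. Mapk3 (-0.76 ± 0.16), Dusp5 (-0.71 ± 0.19), Lrig3 (-0.63 ± 0.13) and Map2k2 (-0.55 ± 0.11) led those that fell. Of the 41 pathway genes, 18 rose and 8 fell there, beside 49.7% of all genes called. Without the 3 libraries that stand apart, 21 of the 26 calls of pathway genes held in ApccKO against Control crypts of day 1 and 25 of 29 in double knockout against NlecKO crypts, including those of the genes just named for them. Of the 41 pathway genes, 3 rose between days in double knockout crypts (Ier3 at 1.65 ± 0.21, Fos at 0.98 ± 0.28 and Cblb at 0.53 ± 0.14). In ApccKO crypts 4 rose (Ier3 at 1.59 ± 0.22, Cblb at 0.77 ± 0.14, Adam10 at 0.34 ± 0.10 and Nras at 0.29 ± 0.08). These counts are near the 6.49% and 11.3% of all genes called between days in double knockout and ApccKO crypts. Without the 3 libraries of day 1 that stand apart, Ier3 in double knockout crypts was the only one of these 7 calls that held. Of the other receptor and the neuregulins, Erbb4 was listed at 0 in all 24 libraries. The genes Nrg1, Nrg2 and Nrg3 did not pass the filter. Nrg4 was the 1 gene tested and fell in double knockout against ApccKO crypts on day 2 (-0.88 ± 0.28, adjusted p = 0.0178).

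The interaction of Nle1 and Apc loss on day 2 was also called for 4 of the 41 pathway genes tested, all lower, beside 5.24% of all genes called and 1.95% called lower. These were Etv4 (-2.33 ± 0.41, adjusted p = 0.00407), Phlda1 (-1.27 ± 0.30, adjusted p = 0.0183), Spred1 (-0.64 ± 0.16, adjusted p = 0.021) and Nras (-0.44 ± 0.12, adjusted p = 0.0347). Etv4 had 89.5 ± 7 CPM in double knockout and 67.0 ± 4.92 CPM in ApccKO crypts, and 41.1 ± 20.8 CPM in NlecKO and 6.10 ± 2.01 CPM in Control crypts. Its rise with Nle1 loss was thus called with Apc intact and not with Apc lost (0.42). The Phlda1 call was lost without Control replicate 1 (adjusted p = 0.0512), that of Spred1 in 4 and that of Nras in 9 of 12 fits that left out 1 library, with adjusted p up to 0.0656 and 0.0982.

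For the 7 members whose 8 group means spanned at least 1 on the log2 CPM scale, the 3 genes nearest in profile were listed by the root mean square difference of centred log2 group means over the 8 groups. Nearest to Areg were Fat2 (0.401), Anxa3 (0.43) and Slc25a48 (0.465). Fat2 averaged 0.08 CPM and Slc25a48 0.25 CPM in Control crypts of day 2, so their log2 means there depend on the prior count. Nearest to Ereg were Plk2 (0.375), Sprr2a2 (0.377) and Ctse (0.401). Hbegf lay nearest to Dusp6 (0.154) and Fos (0.187), which are on the list of ERK-induced genes, and to Reg4 (0.220). Btc lay nearest to Hs3st1 (0.181), Bmp8b (0.182) and Tgfbr2 (0.199). Egfr was nearest to Lrrc51 (0.0941), Gdpd5 (0.0943) and Igf2r (0.102). Erbb2 was nearest to Khnyn (0.0839), Mll3 (0.0916) and Dedd2 (0.0923). Erbb3 was nearest to Veph1 (0.159), Hdac5 (0.173) and Zfr2 (0.187). The list follows from a rule over 8 means and is a description.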

How the data were processed

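RNA from jejunal crypts of 24 mice was analysed, in 8 groups of 3 taken from the sample labels. Per the submitters' processing notes, kallisto 0.43 and the genome build mm9 were used for quantification and DESeq2 and DESeq for normalised values. Not given in the sources used here are the annotation release, the strandedness of the libraries and how transcripts were summed to genes. The deposited expected counts per gene were rounded and tested; the deposited TPM, as the authors made them, were used for levels between genes; the deposited normalised values were not used. Columns were joined to samples by the submitters' code numbers.

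Genes were kept by edgeR's filter (minimum count 10 over the 8 groups), libraries scaled by TMM, and 1 mean per group fitted to all 24 libraries by edgeR 4.0.16 with limma 3.58.1 in R 4.3.3 (robust quasi-likelihood, Benjamini-Hochberg adjustment over 16552 genes, threshold 0.05). Log2 CPM levels used a prior count of 2, and log2 fold changes used the default prior count of edgeR's fit. SE is the log2 change over the root of F. The 95% intervals are 1.96 SE to each side, a normal approximation that is somewhat narrower than the F tests imply. By the series' design text each library is a separate mouse. The biological coefficient of variation was 17.6%. Library depth gave at least 18 counts per library for each member tested, so counting error is largest for Egf. Intervals on counts cover counting error only. The tests were also run on simulated data with known changes.

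Members and pathway lists were chosen with earlier results of these data known. The rule named all 10 members and, per comparison, up to 4 higher and 4 lower pathway genes with the smallest adjusted p, plus 3 profile neighbours per member; Dusp4, Dusp5, Dusp6, Egr1, Etv5, Fos, Ier3, Errfi1, Rhbdf1, Rhbdf2, Adam10, Adam17, Hras, Nras and Nrg4 were also named in comparisons where it did not pick them, after their values were seen. Of 131 genes in the pathway and marker lists, 130 matched by symbol and 1 by Ensembl identifier. Promoters came from RefSeq (GRCm38.p6; 7 of 10 members matched), and exon overlaps and shared words from GENCODE M21, neither used for quantification. Alternatives were DESeq2 1.42.0, DESeq2 size factors, no filter, a filter of 2 CPM in 3 libraries, a replicate block, only the libraries compared, leaving out the 3 libraries that stand apart, and leaving out each library. Figures were drawn with Python and matplotlib.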

Additional observations from a re-analysis of the deposited data

Results flagged for a closer look

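By the test of the interaction, the effect of Nle1 loss differed between crypts with lost and intact Apc on day 2 for 2 of the 9 genes tested. It also differed for 4 of 41 pathway genes, beside 5.24% of all genes (3.29% higher and 1.95% lower). Egfr had an interaction of 0.89 on the log2 scale and Erbb2 of 0.47, so their log2 change with Nle1 loss was higher where Apc was lost. Etv4 had -2.33, Phlda1 -1.27, Spred1 -0.64 and Nras -0.44, so their log2 change with Nle1 loss was lower where Apc was lost. The interaction calls of Erbb2, Phlda1, Spred1 and Nras were each lost in some fits that left out 1 library, that of Nras in 9 of 12. Between days, the effect of Nle1 loss on Erbb2 in crypts with intact Apc differed by -0.74, by the test of that difference; its call was lost in 9 of 12 fits that left out 1 library. No group had the 4 samples needed to test single libraries as outliers.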

How the results depend on the processing

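Counts of the 9 genes called were the same within 1.5 times in 210 of 253 refits and moved in 43. Among results for single genes and pathway lists, 3764 stayed the same and 125 list counts moved. Of the calls of single genes, 158 were lost, 43 were gained and none changed direction. DESeq2 called 3 in NlecKO against Control on day 1 (0 in edgeR), 1 between days in Control (0), 4 in NlecKO (0), 6 in the double knockout (3), and, for the day difference of the Nle1 effect, 5 with Apc intact (1) and 1 with Apc lost (0). That day difference with Apc intact gave 0 with DESeq2 size factors, with no filter and with only the libraries compared. No filter gave 1 between days in ApccKO (2), and the stricter filter 1 in NlecKO against Control on day 1 (0). Without the 3 libraries that stand apart, double knockout against ApccKO on day 1 gave 0 (4) and ApccKO between days 0 (2). With only the libraries compared, the counts were 3 in NlecKO against Control on day 2 (6: Hbegf, Btc and Erbb3 missed the threshold), 5 in double knockout against NlecKO on day 2 (8), 1 for the interaction on day 2 (2) and 4 between days in ApccKO (2); that fit estimates the spread from fewer samples. Leaving out 1 library gave 0 to 1 in NlecKO against Control on day 1, 0 to 1 between days in Control, 0 to 5 in NlecKO, 0 to 2 in ApccKO, 1 to 4 in the double knockout, 1 to 4 for the interaction on day 2 and 0 to 5 for the day difference with Apc intact. Otherwise the cause was not tested.

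No steady pairing by replicate number was seen, although with 3 libraries per group this check cannot exclude it. Of 36 same-numbered pairs, 11 correlated over 0.1 (r from -0.26 to 0.412), and in 0 of 12 comparisons did all 3. A library correlated best with its own number 28 of 72 times, each time out of 3 libraries of the other group. A replicate block moved the count of genes called to 7 from 8 in double knockout against NlecKO on day 2 (Egf, adjusted p = 0.0511) and to 4 from 3 between days in the double knockout (Tgfa, adjusted p = 0.0478), and to no other value. Egf rests on 18 to 50 counts per library, which limits its precision, and Epgn could not be tested at this depth.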
